A study of Homo sapiens with 2 samples.

Results

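The 51 genes described here encode the proton pump of the lysosome (the V-ATPase), the Ragulator scaffold on its surface, the gamma-secretase protease, and a set of lysosomal hydrolases and membrane proteins. They were taken by NCBI gene ID from a list of symbols that has no threshold on their values but was drawn up with earlier results of these data known, and are 51 of the 27685 gene IDs listed in the tables. All 51 were matched and all reached 1 TPM in both libraries. TPM is a transcript abundance per length, relative to all transcripts of a library. RNA came from H1299 cells, a line of human non-small cell lung carcinoma that lacks p53. One group was untreated cells (control) and the other was cells given 5 mM metformin, both grown in the same serum-containing medium. How long the drug was given, and whether each library came from a single dish, is not stated in the sources used here. There was 1 library per group, so differences could not be set against a spread between replicates and carry no p-value, and each 95% interval covers the counting of reads only.

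The V-ATPase pumps protons into the lysosome with the energy of ATP. Its V1 sector hydrolyses ATP on the cytosolic side, and its V0 sector carries protons through the membrane by turning a ring of proteolipid subunits. Gamma-secretase cuts membrane proteins such as APP and Notch within the membrane and consists of a presenilin, nicastrin, APH1 and PEN-2. Metformin, a biguanide, is a common drug for type 2 diabetes. In a route proposed for low doses of the drug, metformin binds PEN-2 (gene PSENEN), PEN-2 then binds the V-ATPase accessory protein ATP6AP1, and the inhibited pump lets AXIN and the kinase LKB1 activate AMPK on Ragulator. That route acts on proteins, and the libraries measured only the RNA of its parts.

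The transcripts of these genes stood close to their control levels in the metformin library. Their summed abundance was 4800 TPM in control and 4818 in metformin, with a ratio of 1.004. That sum leans on abundant genes such as CD63 (500 and 565 TPM) and PSAP (256 and 365), which were higher. Of the 51 genes, 19 were higher and 32 lower. In 38 of the 51 genes (74.5%) the TPM ratio lay between 0.8 and 1.25, against 58.9% of the 14078 genes measured at 1 TPM or more in a library. Among the 9002 protein-coding genes whose mean TPM lay in the range of the members (8.47 to 533), that share was 66.2%. The differences are given below as log2(TPM + 1), metformin minus control, and ratios are plain TPM ratios.

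On that scale no member was higher by 1.5-fold or more, beside 5.4% of all measured genes, and 1 was lower, beside 7.03%. The member past 1.5-fold was CTSC, which encodes cathepsin C. No member was past 2-fold in either direction, beside 1.51% of all measured genes higher and 1.24% lower. The split over all genes depends on how the libraries are scaled. After centring on the median of genes with 10 TPM or more in both libraries, 7.33% were higher and 4.77% lower, and 1 member, PSAP, was then higher by 1.5-fold.

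The median difference over the members was -0.06, and that over all measured genes was -0.08. With 27 members above the all-gene median and 24 below it, the members had no common direction. The difference was above 0 in 19 of the 51 (37.3%), beside 40.3% of all measured genes. Of the members, 26 lay within the interquartile range of protein-coding genes of the same TPM range (-0.29 to 0.11), 13 above it and 12 below it. The 95% counting interval of the ratio lay above 1 for 15 members (29.4%, beside 23.8% of measured genes with an interval) and below 1 for 23 (45.1%, beside 41.7%). For the other 13 it included 1.

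**Figure D1:**
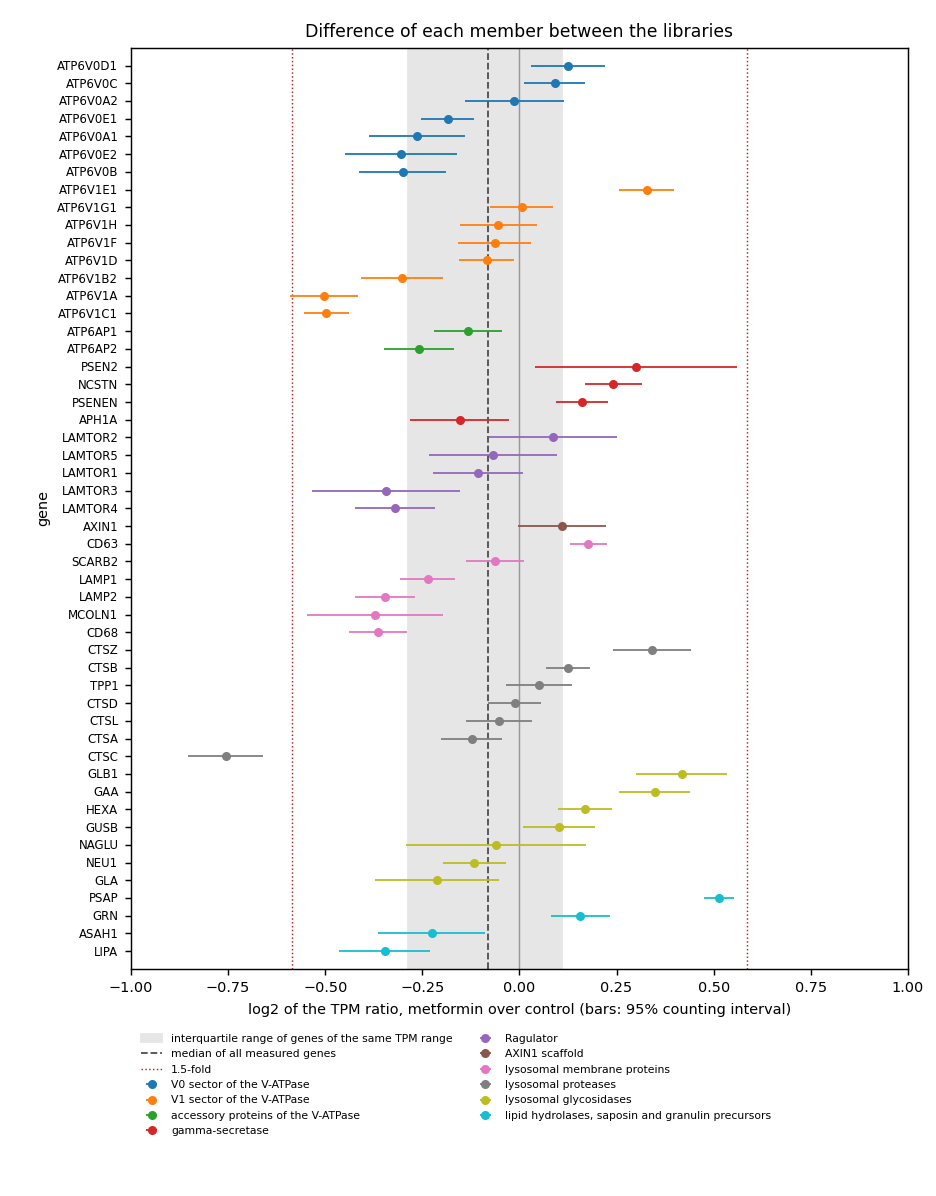
Log2 of the TPM ratio, metformin over control, for each of the 51 genes, coloured by role, with bars for the 95% counting interval. The grey band is the interquartile range of protein-coding genes of the same TPM range and the dashed line the median of all measured genes (-0.08), both as log2(TPM + 1); only CTSC lies beyond the dotted 1.5-fold lines.

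The libraries held 5.80 Gb (control) and 6.40 Gb (metformin) of aligned bases, an estimated 28.7 and 31.7 M read pairs. From 212 pairs (PSEN2 in control) to 13827 pairs (PSAP in metformin) were behind the value of a member. CD68, cathepsins and granulin are abundant in macrophages, so the phagocyte markers PTPRC, CD14, CSF1R, TYROBP, AIF1 and LYZ were checked. They summed to 0.286 TPM in control and 0.122 in metformin, with CSF1R, TYROBP and AIF1 listed at 0 in both. Of the epithelial and mesenchymal markers, the keratin genes KRT8 and KRT18 stood at 269 and 553 TPM in control against 521 and 954 in metformin, VIM at 4378 and 4962, and FN1 at 18.2 and 23.8, whereas EPCAM stayed at or below 0.253. The lung lineage markers NKX2-1, SFTPC and NAPSA were each at or below 0.491 TPM in both libraries. Fewer cells of a kind and less RNA per cell cannot be told apart in bulk RNA.

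Many lysosomal genes carry an E-box in the promoter that TFEB and TFE3, transcription factors of lysosome biogenesis, are known to bind. It was the one feature of sequence looked for in the promoters, and the windows below show it in members whose values lay on either side of control. Promoter windows from 250 bases before to 50 after the gene start, from RefSeq on GRCh38.p14, were matched for 40 of the 51 members. The 7-letter motif TCACGTG, searched on both strands (so also as CACGTGA), was found in 12 of the 40 (30.0%), against 6.08% of the 10898 windows of measured genes and 3.82% of all 27305 windows. The 8-letter palindrome TCACGTGA, which contains it, was found in 6 of the 40 (15.0%) against 1.92% of measured genes. The shorter core CACGTG, contained in both, was found in 13 members (32.5%) against 10.4%. Many lysosomal genes carry this E-box, so these shares follow in part from the choice of members and are no result of the libraries. For each of the 6, the 8-letter match farthest before the gene start is printed with its flanks on the gene's strand, 5′ to 3′, with the match in capitals:
ATP6V0D1: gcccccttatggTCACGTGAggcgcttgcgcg
ATP6V1G1: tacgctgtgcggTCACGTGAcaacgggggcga
LAMP1: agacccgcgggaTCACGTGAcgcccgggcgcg
MCOLN1: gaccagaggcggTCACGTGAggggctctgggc
CTSA: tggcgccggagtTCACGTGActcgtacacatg
GAA: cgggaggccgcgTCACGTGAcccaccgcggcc

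The windows lie at chr16:67481198-67481229 (minus strand) for ATP6V0D1, chr9:114587698-114587729 for ATP6V1G1, chr13:113297198-113297229 for LAMP1, chr19:7522570-7522601 for MCOLN1, chr20:45891297-45891328 for CTSA and chr17:80101492-80101523 for GAA, the last 5 on the plus strand. The printed matches start 60, 59, 29, 42, 26 and 77 bases before the gene start in the same order. LAMP1, MCOLN1 and GAA each held a second 8-letter match, not printed, which started 2, 15 and 32 bases before the gene start. In all, LAMP1 held 6 matches to the 7- or 8-letter motif in its window, MCOLN1, CTSA and GAA 2 each, and ATP6V0D1 and ATP6V1G1 1 each. These 6 genes did not share a direction. Their differences ran from -0.35 for MCOLN1 to 0.34 for GAA, with 3 above 0 and a median of -0.06. Of those 3, ATP6V1G1 lay at 0.005, with a counting interval that included 1. The 12 members with the 7-letter motif had a median of -0.12 and the 28 matched members without it a median of -0.03, while the 663 measured genes with it had a median of -0.13. Above 0 lay 3 of the 12 members with it and 13 of the 28 without it, beside 40.3% of all measured genes.

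In the V0 sector, 4 of 7 genes lay below the all-gene median and 3 above it, with a summed abundance of 645 TPM in control and 607 in metformin. ATP6V0C, the main proteolipid of the rotor ring, stood at 177 TPM in control and 188 in metformin, with a ratio of 1.06 (95% counting interval 1.01 to 1.13), though its log2 difference turned from 0.09 to -0.07 without the trend over GC content and length. ATP6V0B, the second kind of ring proteolipid, stood at 112 and 91.2 TPM, a ratio of 0.812 (0.751 to 0.877). The ring genes lay on opposite sides of control in TPM, but both below it without that trend, where ATP6V0B was at -0.42. ATP6V0D1, which joins the central stalk to the ring, stood at 80.9 and 88.2 TPM, 1.09-fold higher (1.02 to 1.16), and its log2 difference of 0.12 was 0.01 without the trend.

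The small membrane subunits e, encoded by ATP6V0E1 and ATP6V0E2, were both lower. ATP6V0E1 stood at 202 TPM in control and 178 in metformin, with a ratio of 0.880 (0.840 to 0.923). ATP6V0E2 stood at 39.2 and 31.7 TPM, a ratio of 0.809 (0.732 to 0.894). Without the trend the log2 difference of ATP6V0E1 was -0.12 in place of -0.18 and that of ATP6V0E2 -0.44 in place of -0.30. The exons of ATP6V0E2 share bases with the antisense gene ATP6V0E2-AS1, and the sources used here do not say if the strand was read in counting, so reads of such pairs cannot be told apart.

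Subunit a, the arm of V0 through which protons enter and leave, is encoded by alternative genes that direct the pump to different membranes. ATP6V0A1 stood at 22.0 TPM in control and 18.3 in metformin, with a ratio of 0.833 (0.764 to 0.907), and ATP6V0A2, at 12.1 and 11.9 TPM, had a ratio of 0.990 (0.907 to 1.08). TCIRG1, which encodes the third isoform, known from osteoclasts, is not among the 51 genes and stood at 32.9 and 51.3 TPM, 1.56-fold higher (1.45 to 1.68). ATP6V0A4, the kidney isoform, was listed at 0 in both.

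The makeup of subunit a transcripts thus differed between the libraries. TCIRG1 made up 49.1% of the summed TPM of the a genes in control and 62.9% in metformin, and ATP6V0A1 went from 32.9% to 22.5%. The sum of the a genes was 66.9 and 81.6 TPM, a ratio of 1.22. TCIRG1 has a GC content of 65.4%, and without the trend over GC content and length its log2 difference was 0.45 in place of 0.63, under the 1.5-fold threshold.

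**Figure D2:**
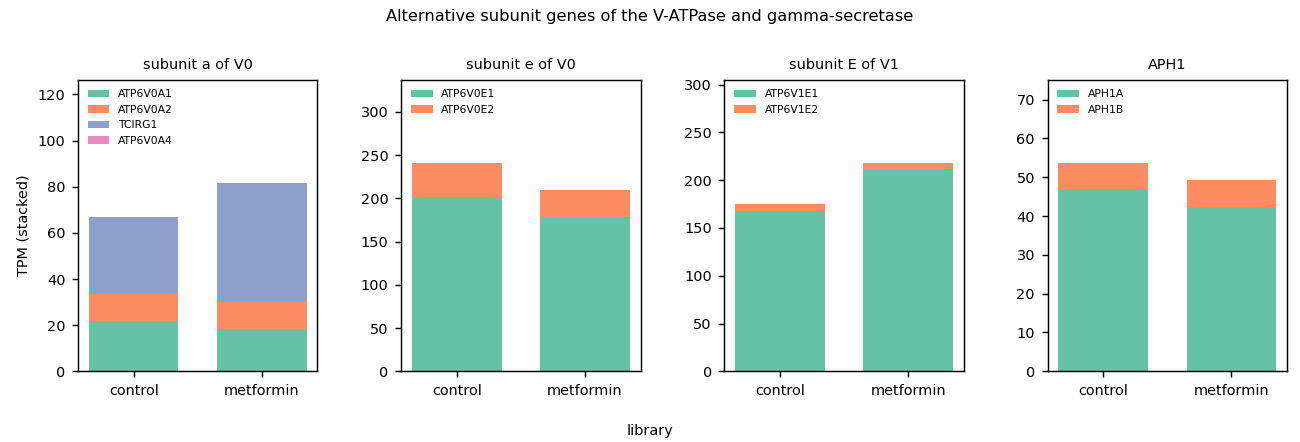
Stacked TPM of the alternative genes for the same subunit in the control and the metformin library, for subunits a and e of V0, subunit E of V1 and APH1. TCIRG1 goes from 49.1% to 62.9% of subunit a.

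In the V1 sector, ATP6V1A and ATP6V1B2 of the head that binds ATP were lower, as was ATP6V1C1, while the stalk genes ATP6V1E1 and ATP6V1G1 were not. ATP6V1A, the catalytic subunit, stood at 42.9 TPM in control and 30.3 in metformin, with a ratio of 0.706 (95% counting interval 0.665 to 0.750). ATP6V1B2, its partner in the head, stood at 43.9 and 35.6 TPM, a ratio of 0.811 (0.754 to 0.873). ATP6V1C1, which links the stalks to V0 and leaves the pump when it disassembles, stood at 78.6 and 55.6 TPM, a ratio of 0.708 (0.680 to 0.737).

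ATP6V1A and ATP6V1C1 had the lowest ratios of the pump's subunits among the 51 genes in TPM. Their log2 differences were -0.49 each and -0.35 each without the trend over GC content and length; both transcripts are poor in GC, at 40.5% and 39.7%. Without the trend that order turned, and ATP6V0E2 (-0.44) and ATP6V0B (-0.42) were the lowest. ATP6V1E1, a subunit of the peripheral stalks, had the highest ratio of the pump genes among the 51, at 168 TPM in control and 211 in metformin, 1.25-fold higher (1.19 to 1.32). Its stalk partner ATP6V1G1 stood at 121 and 122 TPM, a ratio of 1.004 (0.949 to 1.06).

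The remaining V1 genes were near control. ATP6V1D and ATP6V1F, parts of the rotating stalk, stood at 162 and 214 TPM in control against 153 and 204 in metformin, and ATP6V1H, a regulatory subunit, at 61.9 and 59.7. Their log2 differences were -0.08, -0.06 and -0.05, and each changed sign under centring. The alternative V1 genes ATP6V1B1, ATP6V1C2, ATP6V1G2 and ATP6V1G3 were each below 1 TPM in both libraries, and ATP6V1E2 stood at 7.08 and 7.42 TPM. So ATP6V1B2, ATP6V1C1 and ATP6V1G1 each held at least 99.4% of the summed TPM of their subunit's genes in both libraries.

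The accessory proteins were both below the all-gene median. ATP6AP1, also called Ac45 and the proposed partner of PEN-2, stood at 83.3 TPM in control and 76.0 in metformin, with a ratio of 0.913 (0.859 to 0.970). ATP6AP1 (NCBI gene 537) spans 153656978 to 153664863 on chromosome X (hg19). ATP6AP2, the prorenin receptor, stood at 75.8 and 63.3 TPM, a ratio of 0.836 (0.785 to 0.889). Their order turned without the trend, where the log2 difference of ATP6AP1 went from -0.13 to -0.24 and that of ATP6AP2 from -0.26 to -0.09. Over all 17 V-ATPase genes, 10 lay below the all-gene median, the median difference was -0.13, and the summed TPM had a ratio of 0.953.

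**Figure D3:**
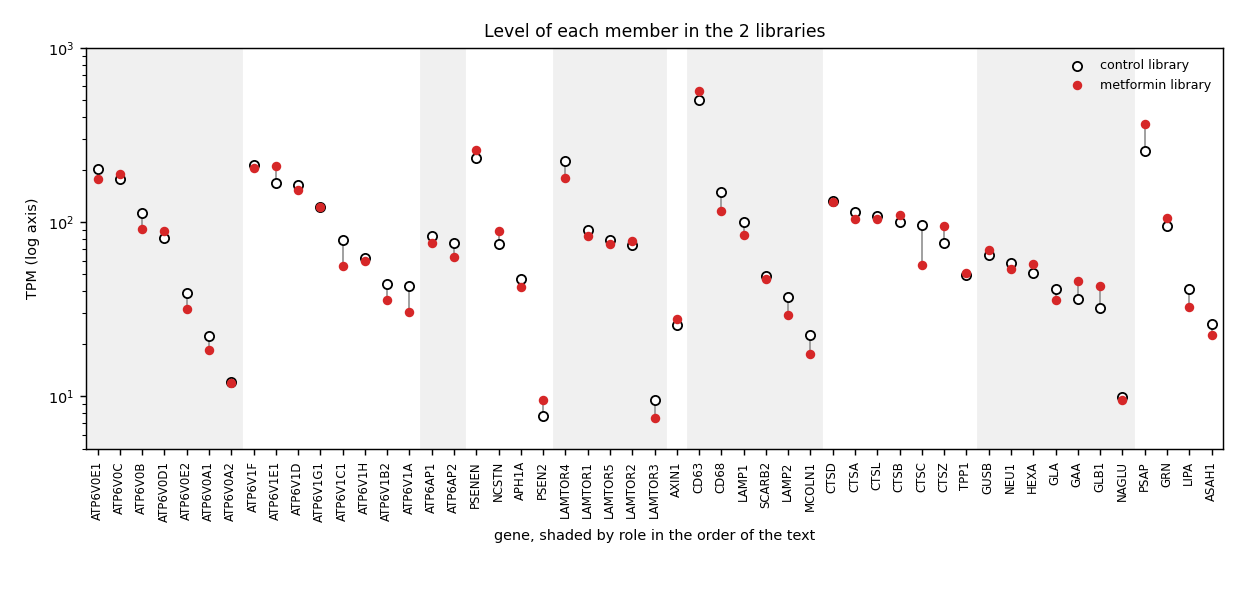
TPM of each of the 51 genes on a log axis in the control library (open circles) and the metformin library (red), grouped by role. CD63 is the most abundant at 500 and 565 TPM, PSEN2, LAMTOR3 and NAGLU lie under 10, and most pairs of points nearly touch.

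Among the gamma-secretase genes, PSENEN, the proposed binding partner of metformin, stood at 233 TPM in control and 260 in metformin, 1.12-fold higher (95% counting interval 1.07 to 1.17). PSENEN (NCBI gene 55851) spans 36236478 to 36238420 on chromosome 19 (hg19). It was the most abundant gamma-secretase transcript in both libraries. NCSTN, which encodes the substrate-binding subunit nicastrin, stood at 74.6 and 88.2 TPM, 1.18-fold higher (1.12 to 1.25). NCSTN shares 188 exon bases with COPA on the opposite strand, and COPA stood at 83.0 and 103 TPM.

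PSEN2, a catalytic presenilin, stood at 7.73 TPM in control and 9.51 in metformin, 1.23-fold higher (1.03 to 1.48). APH1A, the scaffold of the complex, stood at 47.0 and 42.3 TPM, a ratio of 0.899 (0.823 to 0.982). In sum 3 of the 4 genes, PSENEN, NCSTN and PSEN2, were above control under all 10 alternative settings, and APH1A was below it under each.

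The Ragulator genes LAMTOR1 to LAMTOR5 encode the scaffold that anchors the Rag GTPases, mTORC1 and AMPK to the lysosome. LAMTOR4 stood at 225 TPM in control and 180 in metformin, with a ratio of 0.801 (0.746 to 0.860). Its log2 difference of -0.32 was -0.45 without the trend over GC content and length. LAMTOR3, at 9.48 and 7.47 TPM, had a ratio of 0.788 (0.690 to 0.900), and its log2 difference of -0.31 was -0.09 without the trend (GC content 37.4%). The intervals of the other 3 included 1: LAMTOR1, the membrane anchor, stood at 89.7 and 83.3 TPM, LAMTOR2 at 73.6 and 78.1, and LAMTOR5 at 78.6 and 75.0. The summed Ragulator abundance had a ratio of 0.891. AXIN1, the scaffold that carries LKB1 to the lysosome in the proposed route, stood at 25.7 and 27.7 TPM, a ratio of 1.08 with an interval of 0.997 to 1.17. Without the trend, AXIN1 and LAMTOR2 lay below control (-0.06 and -0.03) and LAMTOR1 was at -0.21 in place of -0.10.

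Of the 6 lysosomal membrane genes, 4 lay below the all-gene median and CD63 was above control. CD63, a tetraspanin of late endosomes, stood at 500 TPM in control and 565 in metformin, 1.13-fold higher (1.09 to 1.17), with a log2 difference of 0.18 and of 0.12 without the trend. CD68, a heavily glycosylated membrane protein, stood at 148 and 115 TPM, a ratio of 0.777 (0.737 to 0.818). MCOLN1, the calcium channel of the lysosome also called TRPML1, stood at 22.6 and 17.4 TPM, a ratio of 0.773 (0.684 to 0.873). Without the trend the log2 differences of CD68 and MCOLN1 were -0.46 and -0.49 in place of -0.36 and -0.35.

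LAMP1 and LAMP2, the most abundant proteins of the lysosomal membrane, were lower too. LAMP1 stood at 99.4 TPM in control and 84.4 in metformin, with a ratio of 0.849 (0.808 to 0.892), and LAMP2 at 37.0 and 29.1 TPM, a ratio of 0.787 (0.746 to 0.829). The LAMP2 transcript has the lowest GC content of the 51, 36.0%, and its log2 difference moved from -0.34 to -0.10 without the trend. That of LAMP1 moved the other way, from -0.23 to -0.32. SCARB2, the carrier of glucocerebrosidase, stood at 48.9 and 46.8 TPM with an interval that included 1.

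Among the 7 proteases, CTSC was the one past 1.5-fold. CTSC encodes a dipeptidyl peptidase that activates serine proteases of immune cells and stood at 95.8 TPM in control and 56.7 in metformin, with a ratio of 0.592 (95% counting interval 0.554 to 0.633). CTSC (NCBI gene 1075) spans 88026760 to 88070955 on chromosome 11 (hg19). Of all measured genes, 3.49% had a lower difference. Its log2 difference of -0.75 ran from -0.76 to -0.60 over the alternative settings and was past 1.5-fold in each.

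Of the other proteases, CTSZ and CTSB had intervals above 1, CTSA one below 1 (0.869 to 0.970), and the rest intervals that included 1. CTSZ, a carboxypeptidase, stood at 75.3 TPM in control and 95.3 in metformin, 1.27-fold higher (1.18 to 1.36), and CTSB, which encodes cathepsin B, at 100.4 and 109.6 TPM, 1.09-fold higher (1.05 to 1.14). Without the trend their log2 differences were 0.22 in place of 0.34 and 0.08 in place of 0.12. CTSD, the main aspartic protease of the lysosome, stood at 132 and 131 TPM, a ratio of 0.992 (0.946 to 1.04). Its log2 difference was -0.17 without the trend in place of -0.01. CTSL, a cysteine protease, and TPP1, a tripeptidyl peptidase, stood at 108 and 49.4 TPM in control against 104 and 51.2 in metformin, with intervals that included 1. Each of CTSD and CTSL changed sign under centring.

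Of the glycosidases, GLB1 and GAA were the highest. GLB1 encodes the lysosomal beta-galactosidase and stood at 32.1 TPM in control and 42.8 in metformin, 1.34-fold higher (1.23 to 1.45). It shares 253 exon bases with TMPPE on the same strand, listed at 2.86 and 1.24 TPM. GAA, which degrades glycogen in the lysosome, stood at 36.1 and 46.0 TPM, 1.27-fold higher (1.19 to 1.36). Its log2 difference of 0.34 was 0.17 without the trend.

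GLB1, NEU1 and CTSA encode proteins that form a complex in the lysosome, and their transcripts did not share a direction. NEU1, a sialidase, stood at 58.4 TPM in control and 53.9 in metformin, with a ratio of 0.923 (0.872 to 0.977). CTSA, the protease that protects both enzymes, stood at 113 and 104 TPM, a ratio of 0.918 (0.869 to 0.970) and a log2 difference of -0.12, or -0.23 without the trend. CTSA shares 329 exon bases with PLTP (52.3 and 78.5 TPM) and 959 with NEURL2 (4.11 and 6.12 TPM). Both lie on the opposite strand and were higher in metformin. HEXA, the alpha subunit of beta-hexosaminidase, stood at 50.9 and 57.2 TPM, 1.12-fold higher (1.07 to 1.18), and GUSB, beta-glucuronidase, at 64.4 and 69.0. GLA, alpha-galactosidase, stood at 41.1 and 35.4 TPM, a ratio of 0.863 (0.773 to 0.963), and NAGLU, which degrades heparan sulphate, at 9.93 and 9.53. Without the trend the log2 differences of GUSB and NAGLU were 0.01 and -0.22 in place of 0.10 and -0.05.

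PSAP had the highest difference of the 51 genes. It encodes prosaposin, the precursor of the saposins that present sphingolipids to their hydrolases, and stood at 256 TPM in control and 365 in metformin, 1.43-fold higher (95% counting interval 1.39 to 1.47). PSAP (NCBI gene 5660) spans 73576040 to 73611132 on chromosome 10 (hg19). Its log2 difference of 0.51 ran from 0.44 to 0.60 over the settings. GRN, the progranulin gene, stood at 94.8 and 106 TPM, 1.11-fold higher (1.06 to 1.18), though its log2 difference of 0.16 was 0.00 without the trend over GC content and length.

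The lipid hydrolases went the other way from PSAP. LIPA, the acid lipase that frees cholesterol from its esters, stood at 41.2 TPM in control and 32.4 in metformin, with a ratio of 0.786 (0.724 to 0.853). ASAH1, acid ceramidase, stood at 26.1 and 22.3 TPM, a ratio of 0.855 (0.777 to 0.940). Both transcripts are poor in GC, and without the trend the log2 differences were -0.19 and -0.06 in place of -0.34 and -0.22. Over all 18 soluble lysosomal proteins among the 51, 12 lay above the all-gene median, the median difference was 0.02, and the summed TPM had a ratio of 1.08. Without PSAP that ratio was 0.997.

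GC content moved with the differences of the members, as it did with those of all genes. Across the 51 genes, which share the same 2 libraries, the Spearman correlation of the difference with the GC content of the transcript was 0.30, and across 13523 measured genes it was 0.34. The 17 members with the lowest GC content (36.0% to 46.0%) had a median difference of -0.22, with 2 above 0, against a median of -0.18 over all genes in that range. In the middle 17 the median was 0.10, with 10 above 0, against a median of -0.03 over all genes in that range. Without the trend the median of these middle 17 was 0.02. In the 17 with the highest GC content the median was -0.05, with 7 above 0. In the range of the highest 17, the median over all genes was 0.05, so these members lay below genes of like GC content, and their median without the trend was -0.21. The part of GC content in the results above was otherwise not tested.

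**Figure D4:**
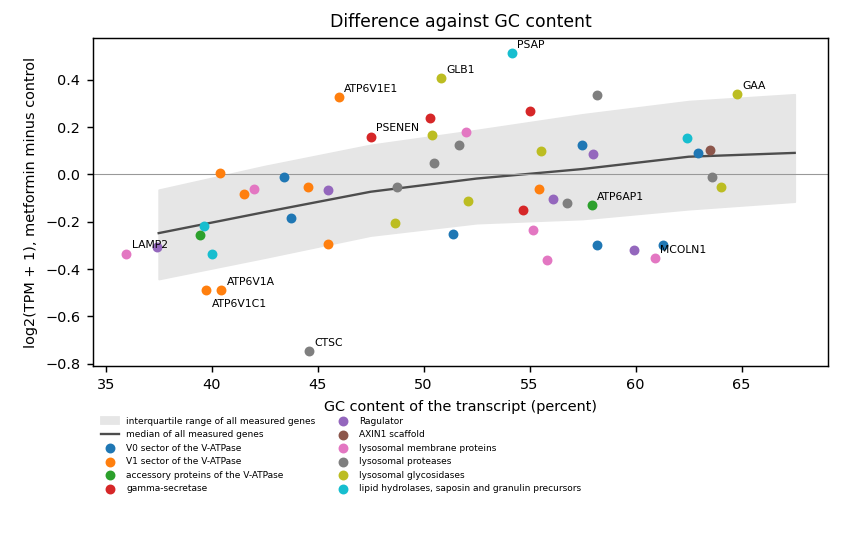
Difference of log2(TPM + 1), metformin minus control, of the 51 genes against the GC content of the transcript, coloured by role. The grey line and band are the median and interquartile range of all measured genes in bins of 5 percentage points, rising from a median of -0.25 between 35% and 40% to 0.07 between 60% and 65%; CTSC lies below the band and PSAP above it.

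Other genes of the same systems were taken from 6 lists of 106 genes, of which 97 reached 1 TPM in a library. Of these 97, 4 were higher by 1.5-fold or more (4.12%, beside 5.4% of all measured genes) and 2 lower (2.06%, beside 7.03%), and the median difference was -0.03. Among 12 measured V-ATPase subunits and assembly factors, TCIRG1 was the one past 1.5-fold. At the other end stood VMA21, a chaperone of V0 assembly, at 34.6 TPM in control and 24.2 in metformin, with a ratio of 0.700 (0.655 to 0.748), and its log2 difference of -0.50 was -0.28 without the trend. Of 13 measured gamma-secretase genes, sheddases and substrates, HEY1, a transcriptional repressor induced by Notch, stood at 3.86 and 9.55 TPM, 2.47-fold higher (1.97 to 3.13), and BACE1, the beta-secretase, at 7.53 and 5.89, a ratio of 0.782. HES1, another Notch target, a gene chosen with its values in view, went the other way from HEY1, at 26.1 and 21.6 TPM. APP itself, chosen in the same way, stood at 311 and 309 TPM.

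Of the 30 other measured hydrolases and activators, 17 lay above 0 (56.7%, beside 40.3% of all measured genes), with a median of 0.04. IDUA, which degrades heparan and dermatan sulphate, stood at 2.65 TPM in control and 6.59 in metformin, 2.49-fold higher (1.89 to 3.32), on an estimated 70.1 and 197 read pairs. ARSA, arylsulfatase A, likewise chosen with its values in view, stood at 4.25 and 7.34 TPM, 1.72-fold higher, and CTSV, a cathepsin close to CTSL, at 7.15 and 3.87 TPM, a ratio of 0.541 (0.457 to 0.639). The list of other lysosomal membrane proteins held 22 genes, among them NPC2, whose protein is soluble. In that list LAPTM4B, a regulator of ceramide and amino acid transport, stood at 273 and 180 TPM, a ratio of 0.658 (0.636 to 0.680). CD164, a sialomucin, stood at 65.8 and 98.0 TPM, 1.49-fold higher. The calls among these genes depend on the trend over GC content and length. Without it TCIRG1, ARSA (0.53) and LAPTM4B (-0.56) were no longer past 1.5-fold, while CD164 (0.81) and ADAM10 (0.68), a sheddase chosen with its values in view, were. That left 4 higher and 1 lower, beside 4.15% and 5.35% of all genes with the trend removed.

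In the list on sorting to the lysosome, 3 of 10 genes (30.0%) lay above 0, beside 40.3% of all measured genes. M6PR, the small mannose 6-phosphate receptor, stood at 197 TPM in control and 138 in metformin, with a ratio of 0.701 (0.676 to 0.727). GNPTG, a subunit of the enzyme that makes the mannose 6-phosphate tag, stood at 27.0 and 39.9 TPM, 1.48-fold higher (1.34 to 1.63). Both share exon bases with a gene on the opposite strand, PHC1 and UNKL.

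Of the kinases that the proposed route leads to, PRKAA1, a catalytic subunit of AMPK, stood at 60.6 TPM in control and 47.6 in metformin, with a ratio of 0.786 (0.751 to 0.823). The PRKAA1 transcript has a GC content of 36.9%, and its log2 difference moved from -0.34 to -0.12 without the trend. STK11, which encodes LKB1 and was added with its values in view because the route holds it, stood at 40.3 and 39.6 TPM, a ratio of 0.985 (0.920 to 1.05). Its log2 difference was -0.21 without the trend in place of -0.02. CAMKK2, an upstream kinase of AMPK outside that route and the highest of the list, stood at 29.1 and 40.4 TPM, 1.39-fold higher (1.31 to 1.47). TFE3 stood at 75.3 and 94.7 TPM, 1.26-fold higher (1.20 to 1.32), with a log2 difference of 0.33, or 0.20 without the trend. TFEB, at 1.06 and 1.41 TPM, had an interval of 0.823 to 2.19 that included 1.

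**Figure D5:**
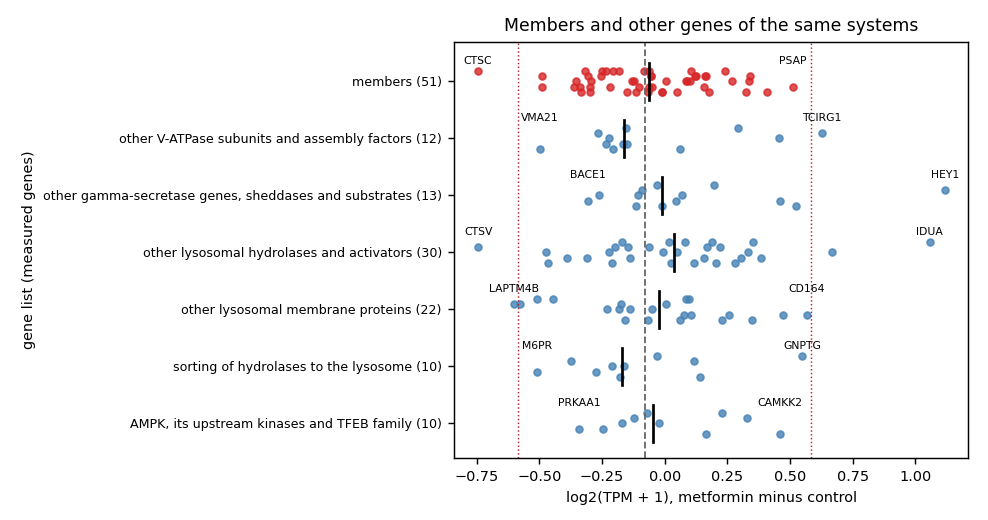
Difference of log2(TPM + 1), metformin minus control, of the 51 genes (red) and of the measured genes of 6 further lists (blue), with a black bar at each median, a dashed line at the median of all measured genes (-0.08) and dotted lines at 1.5-fold. The genes at each end are named; medians run from -0.17 for sorting of hydrolases to 0.04 for the other hydrolases.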

How the data were processed

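One stranded mRNA library of untreated H1299 cells and 1 of cells given 5 mM metformin were sequenced. Per the labels' protocols, Bowtie2 aligned the reads to hg19; Trimmomatic 0.38 and HISAT2 stand in the submitters' processing notes. Neither the abundance program nor its use of the strand is given in the sources used here. The authors deposited rows by gene ID with TPM, FPKM and coverage (a read depth per gene), per the column headers. There were 28157 rows in control and 28160 in metformin for 27685 gene IDs, so some IDs had more than 1 row. TPM, computed by the authors, summed to 1000000 per library and was used for all main values. FPKM as deposited by the authors was used for read numbers and an alternative.

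Tables list NCBI gene IDs. Symbols came from RefSeq (GRCh38.p14, names only), rows of an ID were summed, and positions are those of the tables on hg19. Aligned bases were taken as the largest ratio of coverage to FPKM, and read pairs per gene from FPKM and the canonical transcript of GENCODE 44 on GRCh37 at 202 bases a pair, the commonest number of bases on short, sparsely covered genes (35 of 525 in control, 45 of 485 in metformin). From these came exact (Clopper-Pearson) 95% intervals, which cover counting error only and can be too narrow where PCR copied molecules. The pseudocount was 1, a measured gene had 1 TPM or more in a library, and calls used 1.5-fold and 2-fold. The trend over GC content and length was fitted as a cubic in each over 13245 measured genes. The steps were tested on simulated data with Python 3.11.15. Since TPM values depend on the rest of a library, scalings, pseudocounts, minimums, units and the trend were varied as alternatives. No test was run, since each group had 1 library. Members and lists were chosen with earlier results of these data known. Named were all 51 members, the gene at each end of every other list, TCIRG1, TFEB and TFE3, the overlapping genes and the cell type markers, of which some are not reported here; ARSA, HES1, APP, ADAM10, STK11, APH1B (plotted only) and the V-ATPase paralogs were added after their values were seen or to complete a subunit.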

Additional observations from a re-analysis of the deposited data

How the results depend on the processing

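The median difference of the 51 genes, -0.06 as reported, was 0.0246 after centring on genes with 10 TPM or more in both libraries and 0.0176 with trimmed mean scaling, each of which shifts every gene by the same amount (0.09 and 0.08). The number of members higher by 1.5-fold went from 0 to 1 (PSAP) with centring and to 1 with trimmed mean scaling. The number lower was 1, CTSC, under every alternative. The alternatives were other pseudocounts (0.1 and 5), FPKM or coverage in place of TPM, both scalings, no minimum or a minimum of 5 TPM, the removed GC and length trend, and the highest row per gene ID. Without the 8 members whose exons share bases with another listed gene, an alternative chosen after seeing the data, the median was -0.06 and the counts were the same. Over the reported values and 10 alternatives, 16 members lay above 0 and 23 below 0 in each, and 12 took both signs. The latter were ATP6V0A2, ATP6V0C, ATP6V1D, ATP6V1F, ATP6V1H, LAMTOR2, LAMTOR5, AXIN1, SCARB2, CTSD, CTSL and NAGLU. Signs over the settings were not counted for all measured genes, of which 40.3% lay above 0 in the reported values. The least covered value of a member rests on 212 read pairs, and counting intervals leave out the spread between cultures, which 1 library per group cannot give. No paired analysis was possible because each group had 1 library.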
